A study of Lens culinaris with 18 samples.

Results

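The response of lentil roots to a short water deficit was described from 4 root libraries taken at 24 h, of 18 samples in the series. The drought group held 2 libraries of root from seedlings kept for 24 h in nutrient solution with 15% polyethylene glycol (PEG, grade 6000). The control group held 2 libraries of root from seedlings kept for 24 h in the same solution without PEG. All plants were wild type of the cultivar Sultan (Lens culinaris Medik.), moved to aerated Hoagland's solution when 7 days old. The 24 h comes from the sample labels, while the treatment protocol gives a stay in PEG of 5 days without naming the samples. Libraries were the members because their labels gave root, 24 h and drought or control, and the values were described over transcripts that reached at least 1 in at least 2 of the 4 libraries. This left 23389 of 124151 transcripts.

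PEG is a polymer too large to enter plant cells. It makes water in the solution harder for roots to take up, so that they meet a deficit at once and without drying soil. Roots are the first organ to sense such a deficit. In plants generally, the early response is known for the hormone abscisic acid, for proteins and solutes that protect cells from dehydration, and for changes in water channels and cell walls. The deposited table does not pair its identifiers with gene names, and no annotation was used here. The transcripts are therefore described by level, direction, size of change and behaviour in other libraries, and 2 that rose and 2 that fell are named by identifier.

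The values are TPM (reads per transcript length, scaled to 1000000 in a library) multiplied by 1 factor per library (TMM scaling), and are called TMM-scaled TPM below. Each identifier is a gene-level component of a Trinity assembly, called a transcript here. Values come from whole pieces of root, in which fewer cells of a type and less RNA per cell cannot be told apart. The read depth is unknown, so a value of 0 is given as listed at 0. The drought libraries totalled 592659 and 595410, against 671169 in control replicate 1 and 5832574 in control replicate 2. A pair of transcripts took 0.00909% and 0.00586% of the total in the drought libraries, against 23.3% in control replicate 1 and 92.4% in control replicate 2. The pair consists of TRINITY_DN47470_c0_g1 and TRINITY_DN47470_c0_g2. In leaf at 96 h the same pair took 81.1% and 76.3% of the drought libraries. In the other 12 libraries analysed the pair took at most 0.0991%. Whether either 24 h root control or these leaf libraries were exchanged or mixed with other material was not tested. Every comparison with control replicate 1 or 2 carries this limit. Without the pair the totals were 592605 and 595375 in drought and 514963 and 440547 in control.

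The control libraries stood farther apart than any other replicates of root. Over the 23389 transcripts, the median absolute difference between replicates was 0.28 on the log2(value + 1) scale in drought and 0.64 in control at 24 h. It was 0.15 in drought and 0.07 in control at 96 h. Transcripts at least 2-fold apart between replicates made up 6.44% in drought and 32.1% in control at 24 h. The drought libraries listed 489 and 551 of the tested transcripts at 0, against 859 in control replicate 1 and 4158 in control replicate 2. Of these 4158, 2900 were at 1 or more in control replicate 1, and 176 were at 10 or more.

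The root label could not be checked against marker genes without names. Across transcripts, which are not independent, each of the 4 libraries had a higher Spearman correlation with another root library than with any leaf library. The drought libraries had 0.943 with each other. Their lowest value with a root library, 0.670 and 0.635, was with control replicate 2 in each case and lay below their highest with leaf, 0.735 and 0.715. Control replicate 1 had 0.764 to 0.870 with the other root libraries and 0.561 to 0.705 with leaf libraries. Its highest values, 0.866 and 0.870, were with the 96 h drought root libraries. It had 0.798 and 0.799 with the 96 h root controls and 0.766 with control replicate 2. Control replicate 2 had 0.635 to 0.766 with root and 0.495 to 0.571 with leaf. The results below are therefore given against both controls together and against each alone.

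After 24 h of PEG, 4221 transcripts (18%) rose and 2936 (12.6%) fell of 23389 tested (limma, adjusted p under 0.05). Both counts include transcripts listed at 0 in both libraries of 1 group, which passed the filter through the other group. Limma's test was run on log2(value + 1) over the 8 root libraries with 1 coefficient per group. Changes of at least 4-fold were found in 742 rises and 598 falls, and of at least 16-fold in 35 rises and 16 falls. The rises had a median log2 fold change of 1.32 and the falls of −1.38. These calls draw on the spread of the 96 h root libraries, whose replicates stood closer together than those of either 24 h group. When only the 4 compared libraries gave the spread, limma called 0 transcripts at an adjusted p under 0.05, while 6187 had an unadjusted p under 0.05, of which 3810 were higher in drought. When each library was weighted by its agreement with its replicate, 668 rose (2.86%) and 303 fell (1.3%).

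The balance of rises and falls depended on the control library. Against control replicate 1 alone, 4942 transcripts rose (21.1%) and 5684 fell (24.3%). Against control replicate 2 alone, 9943 rose (42.5%) and 4742 fell (20.3%). In these fits the single control was assumed to vary like the other groups. The controls stood farther apart than the replicates of any other root group (median difference 0.64, against 0.07 to 0.28). Counts can therefore be too high, since the spread may be too small for a control in these fits. Both gave a rise for 4296 transcripts and a fall for 2979. Opposite calls were made for 671 transcripts, of which 592 fell against replicate 1 and rose against replicate 2.

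The scaling moved this balance as well. As deposited, 41.0% of the calls were falls, and with median-ratio size factors 38.6% were. They were 58.2% with the pair removed and libraries brought to the same total, and 9.29% at the same total with the pair kept. The middle of the 23389 log2 fold changes lay at 0.14, 0.17, −0.10 and 1.16 under these 4 scalings, in the order given. Where the pair stays in a common total, every other transcript of control replicate 2 is scaled down with it.

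**Figure D1:**
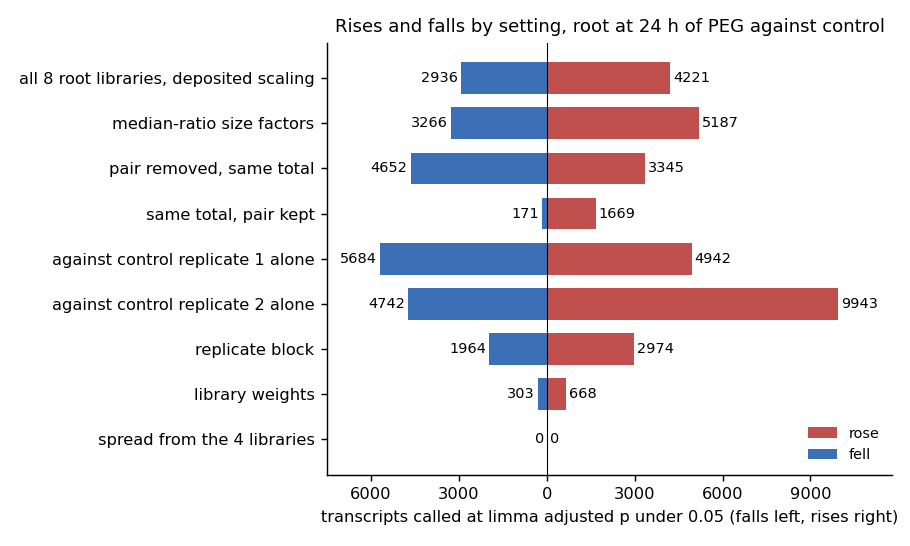
Numbers of transcripts called lower (bars to the left) and higher (bars to the right) in drought than in control at limma adjusted p under 0.05, for 9 settings. With all 8 root libraries at the deposited scaling, 4221 rises stand against 2936 falls. Against control replicate 1 alone falls outnumber rises (5684 and 4942), and no transcript is called with spread from the 4 libraries.

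A count that needs no estimate of spread gave the same contrast between the controls. Both drought libraries were at least 2-fold above control replicate 1 for 2590 transcripts, above control replicate 2 for 6185, and above both for 2102 (8.99%). Both drought libraries were at least 2-fold below control replicate 1 for 2832, below control replicate 2 for 2789, and below both for 1388 (5.93%). The 2102 made up 81.2% of those above replicate 1 but 34.0% of those above replicate 2. The 1388 made up 49.0% and 49.8% of the transcripts below each. With no minimum fold, both drought libraries lay above both controls for 7851 transcripts (33.6%) and below both for 6160 (26.3%).

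A smaller set moved the same way against each control. It was called with both controls, with each control alone and with median-ratio size factors, and was at least 2-fold apart in all drought and control pairs at both scalings. In this set 1888 transcripts were higher (8.07%) and 1165 lower (4.98%) in drought. They were 44.7% of all rises and 39.7% of all falls. These transcripts are called the concordant rises and falls below, and their values at 24 h are a description, since those values chose them. Of the rises, 618 were listed at 0 in control replicate 1 and 972 in control replicate 2. Of the falls, 193 and 185 were listed at 0 in the drought libraries. Those at 0 in both libraries of a group passed the filter through the other group. With the pair removed and libraries at the same total, 1874 of the 1888 were called higher and all 1165 lower. That scaling raises the controls against the drought libraries, and the counts use the libraries that chose the set. At the same total with the pair kept, 1274 of the rises (67.5%) and 125 of the falls (10.7%) passed. Without drought replicate 2, 1350 and 733 did. With library weights 641 of the rises and 301 of the falls passed, and with spread from the 4 libraries 0 did.

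**Figure D2:**
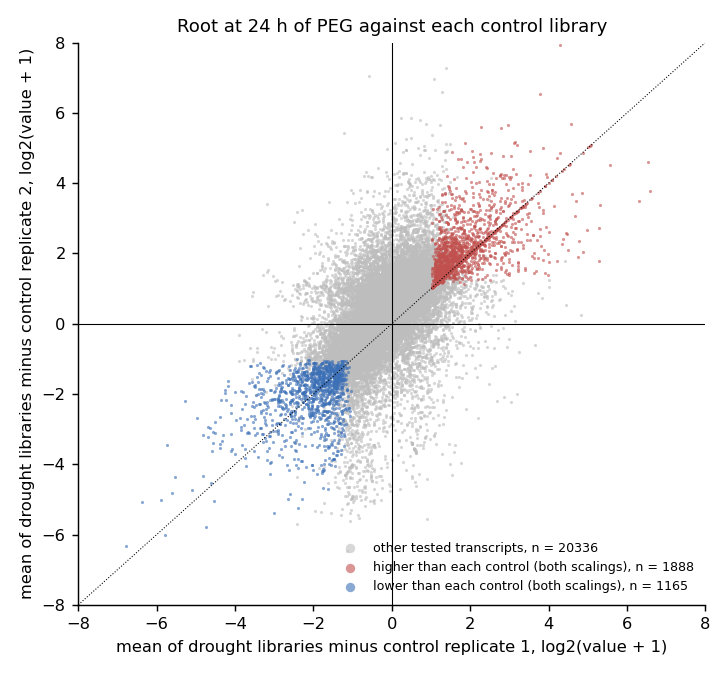
Difference between the mean of the drought libraries and control replicate 1 (horizontal) and control replicate 2 (vertical), both on log2(value + 1), for the 23389 tested transcripts. The 1888 concordant rises (red) lie toward the upper right and the 1165 concordant falls (blue) toward the lower left. The dotted line marks an equal difference from both controls. The dominant pair falls outside the plotted range.

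The concordant rises made up a large share of the root's measured transcripts after PEG. With the pair left out of the totals, they took 19.9% and 21.7% of the drought libraries and 5.72% and 6.31% of the control libraries. The concordant falls outside the pair took 0.673% and 0.560% of the drought libraries and 4.71% and 4.43% of the control libraries. These shares describe a set chosen for its difference from each control. The median level of the concordant rises was 10.6 and 11.2 TMM-scaled TPM in drought, against 1.60 and 0 in control. That of the concordant falls was 0.942 and 0.792 in drought, against 7.46 and 7.82 in control.

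Of the 960 concordant rises with a drought mean of at least 10, TRINITY_DN28505_c0_g1 had the largest log2 fold change at the deposited scaling and a pseudocount of 1. It was at 243 and 248 TMM-scaled TPM in the drought libraries, against 11.6 in control replicate 1 and listed at 0 in control replicate 2. The drought libraries lay close together and far above both controls, which differed from each other. On the log2 scale it changed by 6.12 with an SE of 1.05 (limma adjusted p = 0.00957). It was 4.29 against control replicate 1 alone and 7.95 against control replicate 2 alone. The call was lost without drought replicate 1 or 2 (limma adjusted p = 0.0557 and 0.0709).

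At 96 h this transcript was at 5.35 and 8.61 in drought, against 10.3 and 8.64 in control, which did not pass (limma adjusted p = 0.836). All 4 values were below that of control replicate 1 at 24 h. In leaf at 24 h it was at 37.1 and 28.2 in drought and at 12.6 and 9.41 in control. Leaf therefore changed in the same direction, with a log2 fold change of 1.49 (limma adjusted p = 0.00327). The log2 fold change in root was larger by 4.63 (SE 1.16), a difference given without a test because the transcript was chosen for its change in root.

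Second in that order was TRINITY_DN49811_c0_g1, which was at 666 and 904 TMM-scaled TPM in drought, against 7.34 and 31.1 in control. Both drought libraries were far above both controls, a change of 5.57 on the log2 scale with an SE of 0.64 (limma adjusted p = 0.00352). The order of these 2 rises was not stable. TRINITY_DN49811_c0_g1 had the larger log2 fold change with a pseudocount of 5 (5.21, against 4.78 for TRINITY_DN28505_c0_g1), at the same total with the pair kept (7.18 and 6.41) and against control replicate 1 alone (6.54 and 4.29). Among tested transcripts TRINITY_DN49811_c0_g1 ranked 103 and 57 in the drought libraries, against 10528 and 2226 in the control libraries. At 96 h it was at 1.56 and 3.96 in drought and 4.67 and 4.24 in control. In leaf at 24 h it was listed at 0 in both drought libraries, and was at 0 and 0.246 in control. The high level was thus seen in the 24 h drought roots and in none of the other 6 root libraries or the 4 leaf libraries of 24 h.

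The assembly component that holds TRINITY_DN49811_c0_g1 has 8 transcripts, all of them tested. It was picked through this transcript, and 4 of the 8 were below 1 in both controls, so that they passed the filter through the drought libraries. Their changes are therefore a description. The other 7 transcripts were between 4.87 and 5674 TMM-scaled TPM in the drought libraries and between 0 and 384 in the control libraries, with log2 fold changes of 2.52 to 5.05. In the 96 h root libraries these 7 stood between 0 and 95.0. Transcripts of 1 component are similar in sequence and can share reads, so they are not independent.

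TRINITY_DN47470_c0_g1, the more abundant transcript of the dominant pair, was at 37.7 and 24.1 TMM-scaled TPM in drought, against 106257 in control replicate 1 and 3720265 in control replicate 2. Its partner was at 16.2 and 10.8 in drought, against 49949 and 1671761 in control. The pair held ranks 1 and 2 in both controls, although control replicate 2 held 35.0 times as much of the first and 33.5 times as much of the second as control replicate 1. The pair is described because it fills most of control replicate 2, so its change is given without a test. On the log2 scale the difference of TRINITY_DN47470_c0_g1 was −14.30, and it was −11.74 against control replicate 1 alone and −16.87 against control replicate 2 alone. The first transcript was 2.33 and 2.22 times as high as its partner in drought and 2.13 and 2.23 times in control. Over the 8 root libraries this ratio ran from 1.94 to 2.35, and over the 8 leaf libraries from 2.39 to 2.68. At 96 h TRINITY_DN47470_c0_g1 was at 329 and 365 in drought root and 140 and 113 in control root, so the high level was seen in no other root library.

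Of the concordant falls outside the pair, TRINITY_DN35497_c0_g2 changed most. It was listed at 0 in both drought libraries, against 109 and 79.8 TMM-scaled TPM in control. The groups were far apart and did not overlap. This is a description, since the transcript passed the filter through the control libraries and was chosen for its fall. Library weights ended its call (limma adjusted p = 0.0728). At 96 h it was at 0 and 3.23 in drought and 57.0 and 57.1 in control (limma adjusted p = 0.00472). In leaf at 24 h it was at 4.53 and 3.49 in drought and 28.0 and 31.1 in control. Leaf was thus lower in drought as well, with a log2 fold change of −2.62, which did not pass (limma adjusted p = 0.157). The spread in that fit also comes from the 96 h leaf libraries, which include the drought libraries that the pair mostly fills. The 3 transcripts named outside the pair were chosen among calls for their size, so their adjusted p-values in root at 24 h are a description. With spread from the 4 libraries alone, the limma adjusted p of these 3 was 0.0882 to 0.0957. For 1 transcript taken alone, an exact permutation test of 2 against 2 libraries cannot go below a 2-sided p of 0.33.

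**Figure D3:**
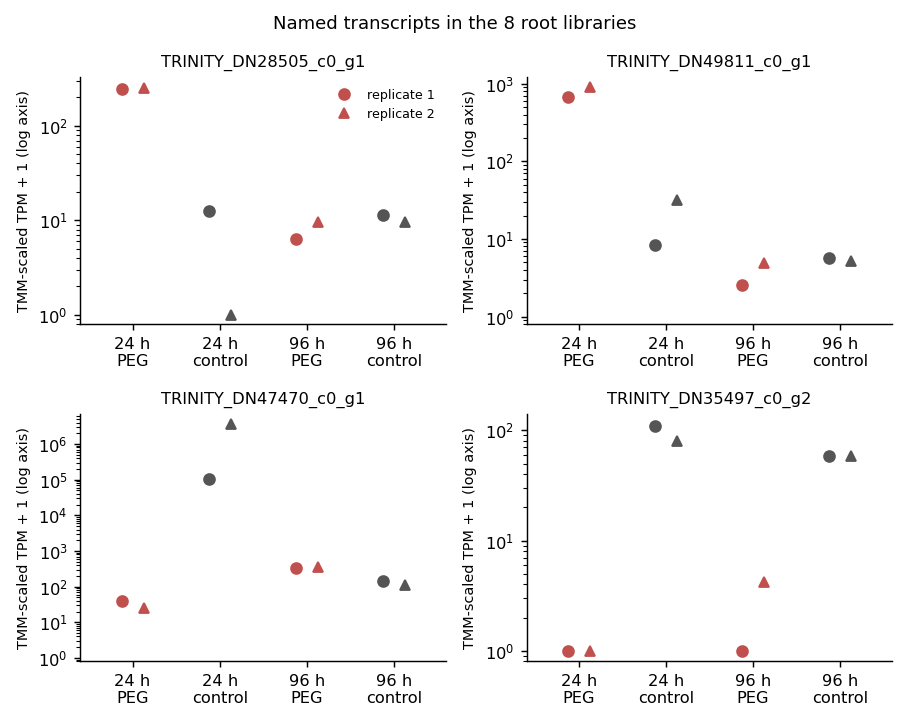
Level of the 4 named transcripts in the 8 root libraries, as TMM-scaled TPM + 1 on a log axis, with 1 point per library (circles replicate 1, triangles replicate 2; red PEG, grey control). Both upper transcripts are high in the 24 h PEG libraries alone, TRINITY_DN47470_c0_g1 reaches 106257 and 3720265 in the 24 h controls, and TRINITY_DN35497_c0_g2 is low in PEG at both times.

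The direction of change went with the level of the transcript. Among 779 transcripts with a mean of at least 100 over the 4 libraries, 308 rose (39.5%) and 39 fell (5.01%). Between 10 and 100, 2062 of 7356 rose (28.0%) and 720 fell (9.79%). Below 10, 1851 of 15254 rose (12.1%) and 2177 fell (14.3%). Over all tested transcripts the shares were 18% and 12.6%. Classes were set on the deposited values of the 4 libraries for every setting given here. In the abundant class, rises outnumbered falls against control replicate 1 alone (310 and 94), against control replicate 2 alone (507 and 48) and with the pair removed (266 and 88). Below 10, falls outnumbered rises against control replicate 1 alone (4164 and 2228) but not against control replicate 2 alone (3662 and 5629) or at the same total with the pair kept (146 and 1272).

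The abundant class held more of the library after PEG. Without the pair, its other 777 transcripts took 51.1% and 50.5% of the drought totals, against 45.4% and 44.8% in control. The class was chosen by the mean of the same 4 libraries, so these shares are a description. The median transcript of the class was at 229 and 218 TMM-scaled TPM in drought and at 167 and 127 in control. The 10 highest transcripts of each library took 6.91% and 7.52% of the total without the pair in drought, against 6.19% and 10.2% in control, so the groups overlapped there.

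**Figure D4:**
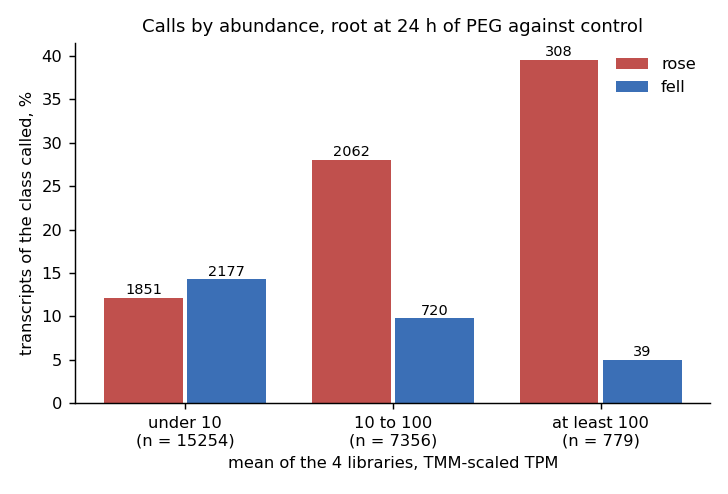
Percentage of transcripts that rose (red) and fell (blue) in drought at limma adjusted p under 0.05, by the mean of the 4 libraries in TMM-scaled TPM, with the number of calls above each bar. Rises grow to 39.5% of the class of at least 100, and falls shrink to 5.01%.

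Some transcripts were seen at 24 h in 1 condition and not in the other. Of the 23389 tested, 661 transcripts were at 1 or more in both drought libraries and listed at 0 in both controls. They passed the filter through the drought libraries, so no count of rises among them is given. Their mean in drought had a median of 1.95 and reached 48.1, and 21 of them were at 10 or more. Of the 661, 421 were above 0 in at least 1 of the 96 h control libraries, and 173 were at 1 or more in both. Those were present in unstressed root at the later time. In the other direction, 191 of the 23389 were listed at 0 in both drought libraries and at 1 or more in both controls. They passed through the control libraries. Their mean in control had a median of 5.07. Of the 191, 111 were above 0 in at least 1 of the 96 h control libraries, and 46 were at 1 or more in both. Control replicate 2 lists more transcripts at 0 than any other of the 4 libraries and few between 0 and 1. Its part in the excess of 661 over 191 was not tested.

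Calls were also compared within assembly components. Of 500 components with at least 2 called transcripts, 288 held rises alone, 109 held falls alone and 103 held both. Among the 725 pairs of called transcripts within a component, 82.6% went the same way, against 51.6% of all pairs that the called transcripts can form. Among concordant transcripts, 103 of 150 such components held rises alone, 26 held falls alone and 21 held both. The part of shared reads in these counts was not tested.

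The concordant transcripts were followed in leaf at 24 h, which shares no library with root at 24 h. The leaf calls also draw on the spread of the 96 h leaf libraries, which include the drought libraries that the pair mostly fills. Of the 1888 rises, 1143 were measured in leaf, where 406 rose (35.5%) and 81 fell (7.09%). Over all 18523 transcripts measured in both tissues, 2456 rose (13.3%) and 3025 fell (16.3%) in leaf. Of the 1165 falls, 671 were measured in leaf, where 319 fell (47.5%) and 33 rose (4.92%). The median log2 fold change in leaf was 0.51 for the concordant rises and −0.91 for the falls, against 0.00 for all transcripts measured. The shared rises were 16.5% of all rises in leaf, and the shared falls 10.5% of all falls.

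The same direction was seen with either control. Of transcripts that rose in root against control replicate 1 alone, 26.5% rose and 7.38% fell in leaf. Against control replicate 2 alone these were 19.3% and 9.99%. Of transcripts that fell in root against control replicate 1 alone, 30.5% fell and 6.55% rose in leaf, and against control replicate 2 alone 30.2% fell and 6.88% rose.

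At 96 h in root, fewer of the concordant rises rose than fell. Of the 1888, 152 rose (8.05%) and 334 fell (17.7%), while over all 23389 tested 2662 rose (11.4%) and 2598 fell (11.1%). Of the 1165 concordant falls, 208 fell (17.9%) and 290 rose (24.9%). The shared rises were 5.71% of all rises at 96 h, and the shared falls 8.01% of all falls. These 96 h calls come from the fit with both 24 h controls. Over all transcripts called at both root times, rises that became falls outnumbered rises at both times against control replicate 1 alone. Against control replicate 2 alone they did not. Falls that became rises outnumbered falls at both times against each control alone. Both root contrasts come from 1 fit, and a transcript with a low spread is called more readily in each of them. Control replicate 1 at 24 h correlated most with the 96 h drought root libraries. The part of this in the opposite calls was not tested.

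The levels of both sets at 96 h were read within that time, since the 24 h values chose the sets. The concordant rises had a median of 2.97 and 3.01 TMM-scaled TPM in drought and 3.91 and 4.08 in control at 96 h. The concordant falls had 5.59 and 5.01 in drought and 3.75 and 3.92 in control. Within 96 h, the drought medians lay below the control medians for the rises and above them for the falls.

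**Figure D5:**
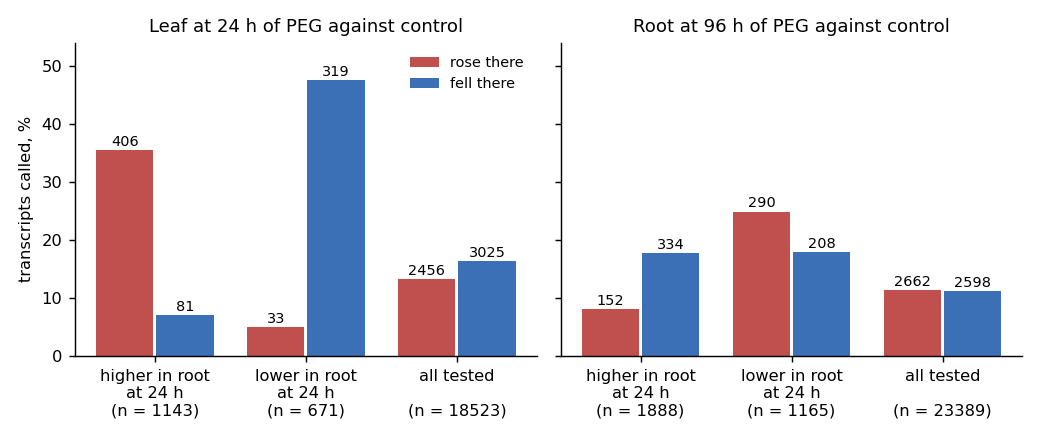
Percentage of the concordant rises, the concordant falls and all tested transcripts that rose (red) or fell (blue) under PEG in leaf at 24 h (left) and in root at 96 h (right), at limma adjusted p under 0.05, with numbers of calls above the bars. In leaf, 406 of 1143 rises rose and 319 of 671 falls fell; in root at 96 h, 152 of 1888 rises rose and 208 of 1165 falls fell.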

How the data were processed

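Root and leaf RNA libraries were compared. The authors deposited 1 signal value per transcript and library, labelled as TMM-scaled. FastQC 0.11.5, Trimmomatic 0.35, RSEM and edgeR are listed, without their roles, per the submitters' processing notes. Within 0.0006, 100% of values above 0 and below 0.5 in each root library were whole multiples of 1 unit per library, the size that 2-decimal TPM would have once scaled to the deposited total (by chance 2.06% to 23.3%). No source used here gives the assembler's version, the aligner or the filters. Read counts were not used here, so the depth behind each value is unknown and no counting interval is given.

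Tests used limma 3.58.1 in R 4.3.3 (lmFit, eBayes with trend and robust) on log2(value + 1), with Benjamini-Hochberg adjustment over 23389 transcripts, and fold changes understate those of low transcripts. The leaf fit used 8 leaf libraries and 18523 transcripts. Interactions came from 1 fit of the libraries involved. Median-ratio size factors used 19252 transcripts above 0 in all 8 root libraries. The method was tested on simulated data drawn with 1 spread for all libraries. That simulation does not cover the unequal spread of these groups. Members, lists and comparisons were chosen with earlier results of these data known. Up to 2 rises were named as the largest concordant rises with a drought mean of at least 10. The falls named were the largest concordant fall outside the pair, with a control mean of at least 10, and the more abundant of the pair. Alternatives were other pseudocounts, filters, scalings, sources of spread, library weights, a replicate block and single libraries left out. Replicates are called biological in the labels' protocols. The p-values reflect the spread among the libraries of each fit alone, which in the main root and leaf fits include those of 96 h. The 2 stem samples were not analysed here.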

Additional observations from a re-analysis of the deposited data

Results flagged for a closer look

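For 4 of the transcripts described, the log2 fold change in root at 24 h is set beside that in root at 96 h and in leaf at 24 h. These 4 were chosen for a large difference in root at 24 h, or, for the pair, for the level in control replicate 2. The differences lean that way by choice and are given without their p-values. TRINITY_DN28505_c0_g1 responded more in root at 24 h than at 96 h by 6.54 (log2) and more than leaf at 24 h by 4.63. For TRINITY_DN49811_c0_g1 the difference from 96 h was 6.18. Its difference from leaf, 5.73, is nearly its change in root, since in leaf it was listed at 0 in all but 1 of the 4 libraries of 24 h and did not enter the leaf fit. For TRINITY_DN47470_c0_g1 the differences were −15.76 and −13.85, and for its partner −15.99 and −13.89. For TRINITY_DN35497_c0_g2 neither difference passed (limma interaction adjusted p = 0.185 and 0.0810). The other transcripts of the component of TRINITY_DN49811_c0_g1 were not compared in this way.

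Outside the libraries compared, the pair also took a mean of 78.7% of the total in leaf at 96 h of drought, with 81.1% and 76.3% in its libraries, against 0.0236% and 0.0188% in the 96 h leaf controls. There the first transcript was 2.62 and 2.63 times its partner, against 2.39 and 2.56 times in the 96 h leaf controls and 2.13 and 2.23 times in the 24 h root controls.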

How the results depend on the processing

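Every count of calls above rests on borrowed spread, and read depth, which would limit low transcripts, is unknown. With spread from the 4 compared libraries limma called 0 rises and 0 falls, of any size or abundance (6187 at an unadjusted p under 0.05). With library weights it called 668 rises and 303 falls, all at least 2-fold, of which 128 and 13 were abundant (mean of at least 100). Weights were estimated from agreement between replicates. The cause of these differences was not tested.

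By scaling, the pair removed and the same total gave 4652 falls, 88 of them abundant, and 2106 transcripts at least 2-fold below both controls. The same total with the pair kept gave 1669 rises and 171 falls, all at least 2-fold, of which 65 and 2 were abundant, with a median log2 fold change of 1.16. It put 18345 transcripts at least 2-fold above control replicate 2 and 3216 above both controls, and 226 below control replicate 2 and 131 below both. With median-ratio size factors, rises at 24 h that became falls at 96 h in root numbered 1029, against 674 as deposited. Combined with leaving out control replicate 1, an alternative chosen after seeing the data, they gave 9181 rises and 5555 falls, of which 6372 and 3815 were at least 2-fold and 64 falls were abundant. Combined with leaving out replicate 2, they gave 4582 falls, 67 of them abundant.

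A pseudocount of 5 left 1615 rises and 768 falls of at least 2-fold, since it shrinks the fold changes of low transcripts. Above control replicate 1, replicate 2 and both it left 1049, 2234 and 813 at least 2-fold, and below them 955, 1246 and 331. Without a filter 1586 transcripts fell, 1486 at least 2-fold and 24 abundant. With a filter at 5 there were 1717 falls, 1251 at least 2-fold, among fewer transcripts tested.

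With single root libraries left out, rises ranged from 1871 to 9943 and falls from 992 to 5684, lowest without 24 h drought replicate 2 and highest without control replicate 1 for rises and replicate 2 for falls. Rises of at least 2-fold ranged from 1666 to 6872 and falls from 932 to 3458, and abundant ones from 189 to 507 and from 14 to 94. The median log2 fold change ranged from −0.12 to 0.41. Without 1 of the 96 h controls, 2537 or 2535 rose and 1381 or 1383 fell. With 1 control left out, transcripts called at both root times numbered 991 to 2420 (rose), 1112 to 1349 (fell), 1437 to 2404 (rose, then fell) and 1327 to 2030 (fell, then rose). Those called in root and leaf numbered 1034 to 1589 (rose), 934 to 1311 (fell), 288 to 822 (rose in root and fell in leaf) and 213 to 282 (the reverse).

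The groups share replicate numbers, but differences between replicates 1 and 2 had a Pearson r of 0.00099 between drought and control across 23389 transcripts, and no label ties the numbers. With a replicate block 2974 transcripts rose and 1964 fell, within 1.5 times the counts without it, and each transcript named outside the pair passed. No named transcript changed direction under any alternative run. Those outside the pair were chosen for a large difference from each control, so these outcomes are a description.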
